A study of Mus musculus with 8 samples.

Results

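Matrix metalloproteinases and their inhibitors were examined in RAW264.7 cells, a virus-transformed mouse macrophage-like line, after treatment with recombinant FSTL1. The 10 genes were chosen by name from the 22013 genes in the count table: the metalloproteinases Mmp9, Mmp12, Mmp13, Mmp14 and Mmp19, the tissue inhibitors Timp1, Timp2 and Timp3, and the membrane proteases Adam8 and Adam10. All 10 had a row in the table. Of these, 6 passed edgeR's filter on low counts and were tested among 10748 genes, and the other 4 (Mmp9, Mmp13, Mmp14 and Timp3) are given by their counts. RNA was sequenced from 4 libraries of cells given PBS and 4 libraries of cells given rFSTL1, the recombinant protein, at 100 ng/mL over 24 h. The labels give no time or volume for PBS, and they do not say whether the 4 libraries of a group came from separate cultures. The p-values therefore measure the spread between these libraries, which may be technical.

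Matrix metalloproteinases are zinc-dependent enzymes that cut collagen, elastin and other parts of the extracellular matrix. Most are secreted as inactive precursors, a few are held at the cell surface, and the TIMPs block the active enzymes by binding their catalytic site. ADAM proteases share the metalloproteinase domain but sit in the cell membrane, where they release the outer part of other membrane proteins, a process called shedding. Macrophages are a known source of several of these enzymes, above all Mmp12, the macrophage elastase, and they use them in matrix turnover and migration.

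Total counts ran from 15183118 to 20234477 per library under PBS (median 17326945.5) and from 15062023 to 19260960 under rFSTL1 (median 17711363). Values are given below as counts, as CPM (counts scaled to a common library total with edgeR's TMM factors) and as log2 fold changes of rFSTL1 against PBS. All 8 macrophage markers examined, including Adgre1, Cd68 and Csf1r, passed the filter, with a summed level of 4550 to 4690 CPM under PBS and 4610 to 4750 CPM under rFSTL1. Their levels differed widely, with means of 1255 and 1269 CPM for Csf1r but only 3.43 and 3.66 CPM for Adgre1. Neutrophil markers summed to at most 0.0987 CPM and lymphocyte markers to at most 0.257 CPM in any library. Of 7 osteoclast markers 2, Acp5 and Dcstamp, were tested, and the 7 summed to 36.7 to 42.9 CPM under PBS and 39 to 41.1 CPM under rFSTL1. Dcstamp alone had means of 38.7 and 38.1 CPM, and Acp5 had 0.921 and 1.07 CPM. On the first principal component (28.8% of the variance), rFSTL1 replicates 3 and 4 stood apart with scores of 8.428 and 15.24, against -8.018 to -0.1746 for the other 6 libraries. On the second component (18.8% of the variance), rFSTL1 replicate 2 stood apart with -14.64, against -1.106 to 7.034 for the others. Values without replicates 3 and 4, and without replicate 2, are given beside the members' results that move with them.

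None of the 6 tested genes passed an adjusted p of 0.05 in the quasi-likelihood fit of edgeR (Benjamini-Hochberg over all tested genes), a threshold that 0.344% of all tested genes passed. At an unadjusted p under 0.05, 2 of the 6 genes were found, Adam8 with a higher level under rFSTL1 and Adam10 with a lower one, where 15.9% of all tested genes reached that level. DESeq2 gave an adjusted p for 2 of the 6, Adam8 (0.113) and Adam10 (0.252), and called neither, and limma voom with sample quality weights called 1, Adam8. The groups did not overlap for 1 of the 6 genes, Mmp12, against 8.16% of all tested genes. The log2 fold change was positive for 3 genes and negative for 3, with a median of -0.04 beside 0.01 over all tested genes. The plot of levels by library shows all 10 genes.

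**Figure D1:**
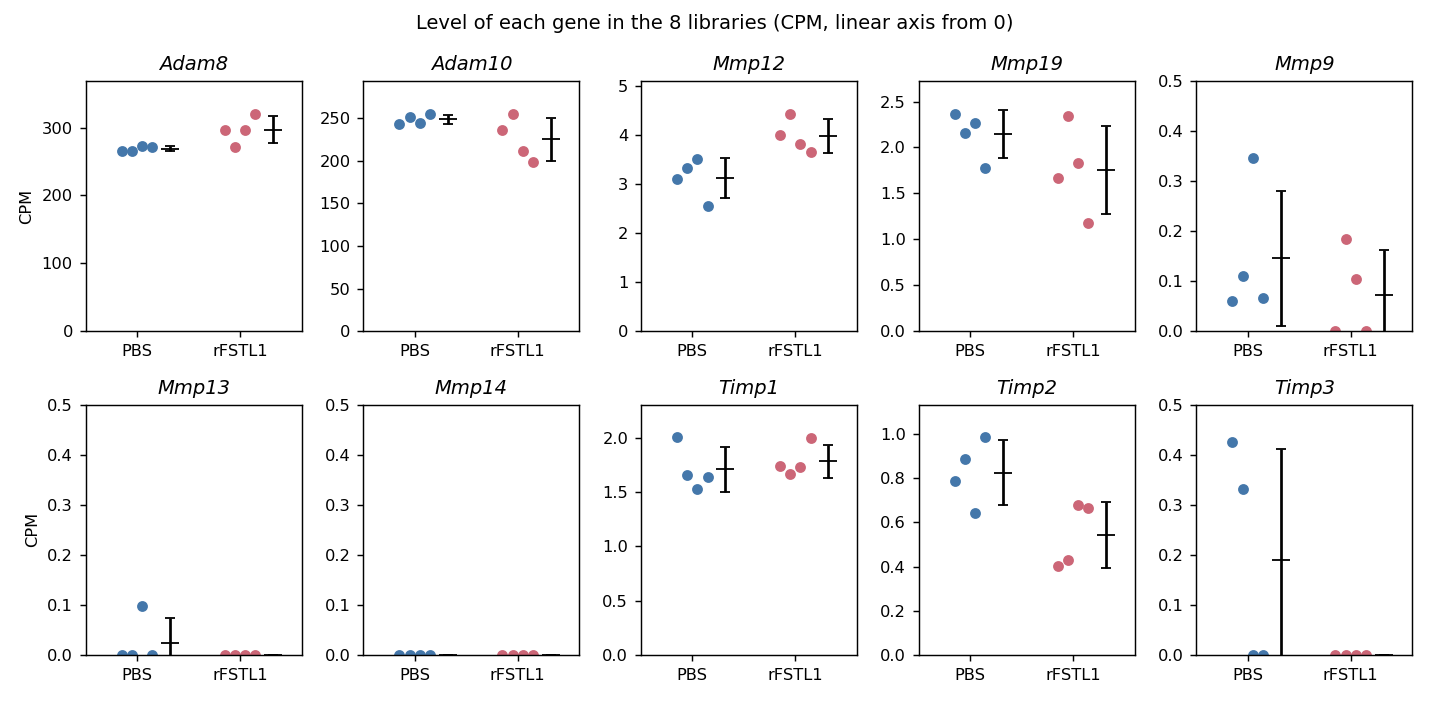
Level of each of the 10 genes in CPM on a linear axis from 0, with 1 point per library in the order of the replicate numbers, PBS in blue and rFSTL1 in red, and the mean ± SD of each group beside its points (n = 4). Adam8 and Adam10 lie between 198.4 and 320.4 CPM, Mmp12, Mmp19, Timp1 and Timp2 below 5 CPM, and the other 4 genes below 0.5 CPM.

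The membrane proteases Adam8 and Adam10 had far more counts than the other 8 genes. Adam8 encodes a myeloid sheddase and adhesion molecule that becomes active by self-cleavage. Its level was 265.7, 266.0, 272.5 and 270.8 CPM under PBS and 297.0, 271.5, 297.0 and 320.4 CPM under rFSTL1. Of the 4 rFSTL1 libraries, 3 lay above every PBS library and the remaining one, replicate 2, lay inside the PBS range. The means were 268.7 ± 3.44 CPM under PBS and 296.5 ± 20.01 CPM under rFSTL1 (SD, n = 4), so the spread was wider after treatment. The log2 fold change was thus 0.14 (standard error 0.05, 95% interval 0.04 to 0.24), a factor of 1.10, and the adjusted p was 0.192 (edgeR, Benjamini-Hochberg). A two-sided exact permutation test of Adam8 over the 70 assignments of the libraries gave p = 0.0571, where the smallest p possible is 0.0286. Exons of Adam8 overlap the transcript Gm16201 on the opposite strand, which has no row in the table used here, so its reads cannot be told apart.

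Adam10 encodes the ubiquitous sheddase that cuts Notch receptors and many cytokine and adhesion precursors. Its level was 243.0, 252.0, 245.0 and 254.9 CPM under PBS and 236.0, 255.5, 211.4 and 198.4 CPM under rFSTL1. Under rFSTL1, 3 libraries lay below every PBS library, while replicate 2 lay above all of them. The group means were 248.8 ± 5.64 CPM and 225.3 ± 25.5 CPM (SD, n = 4). The log2 fold change of Adam10 was -0.14 (standard error 0.06, 95% interval -0.28 to -0.01), a factor of 0.905, the adjusted p was 0.286 (edgeR, Benjamini-Hochberg) and the exact permutation p was 0.171.

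The size of both differences depended on which libraries were kept. Without rFSTL1 replicates 3 and 4, the log2 fold change was 0.08 for Adam8 and -0.02 for Adam10. Without rFSTL1 replicate 4 alone it was 0.10 for Adam8 and -0.09 for Adam10. Without rFSTL1 replicate 2 the differences were larger, at 0.17 (adjusted p 0.0520) and -0.22 (adjusted p 0.0531) in the edgeR fit. With a fit of transcript length and GC content taken out of every library, the values were 0.08 for Adam8 and -0.08 for Adam10. The part of these libraries and of that trend in the differences was not tested further.

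Within a library, the number of Adam8 counts divided by the number of Adam10 counts does not depend on the scaling of libraries. This ratio was 1.093, 1.055, 1.112 and 1.062 under PBS and 1.258, 1.062, 1.405 and 1.615 under rFSTL1. Under PBS the libraries lay close together, with a mean of 1.08 ± 0.0265 (SD, n = 4). Under rFSTL1 the mean was 1.34 ± 0.234 (SD, n = 4), replicate 2 lay inside the PBS range and the other 3 libraries lay above it. The ratio was formed after both differences had been seen and carries no test. Because these are bulk libraries, fewer cells expressing a gene and less RNA per cell cannot be told apart.

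**Figure D2:**
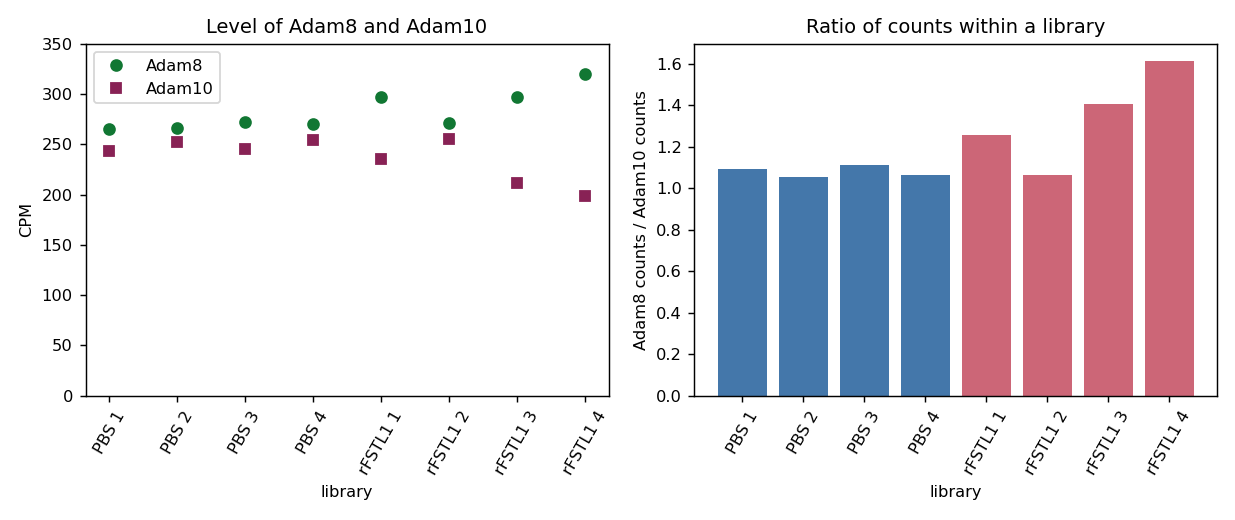
Left, the level of Adam8 (circles) and Adam10 (squares) in CPM in each of the 8 libraries. Right, the ratio of Adam8 counts to Adam10 counts within each library on a linear axis from 0, PBS in blue and rFSTL1 in red, where rFSTL1 replicates 1, 3 and 4 exceed every PBS library and rFSTL1 replicate 2 does not.

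Over the 8 libraries, the tested genes whose log2(CPM + 1) followed Adam8 most closely were Abt1, Arhgef7 and Hk1, with Pearson correlations of 0.987, 0.981 and 0.979. Those closest to Adam10 were Asah1, Vps50 and Suz12, with 0.986, 0.986 and 0.983. These 6 genes were picked as the highest correlations of all tested genes, every correlation includes the libraries that stood apart, and none of the 6 passed the adjusted threshold in edgeR.

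The start regions of these genes were read to set the abundant and the scarce genes side by side. The windows come from RefSeq on the mouse assembly GRCm38.p6, each with 250 bases before and 50 after an annotated start, and 8 of the 10 genes had one. The box GGGCGG, bound by Sp1-type factors, was searched on both strands and was present in 35.7% of all 32851 windows. The last 120 bases before the start are printed 5′ to 3′ on the gene's strand, for Adam8 at chr7:139992563-139992682 on the minus strand and for Adam10 at chr9:70678862-70678981 on the plus strand, with that box in capitals.
Adam8: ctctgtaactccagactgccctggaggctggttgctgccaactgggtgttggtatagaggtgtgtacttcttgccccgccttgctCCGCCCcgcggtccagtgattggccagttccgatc
Adam10: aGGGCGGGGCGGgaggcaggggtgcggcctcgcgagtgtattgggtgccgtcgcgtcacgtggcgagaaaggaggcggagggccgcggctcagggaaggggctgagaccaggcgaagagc
The Adam8 stretch holds 1 such box, on its reverse strand, with its first base at position -35 counted from the start as +1. The Adam10 stretch holds 2 that overlap by 1 base, at -119 and -114, and the Adam10 window holds 1 more at -238. GC content was 52.3% in the Adam8 window and 73.3% in the Adam10 window, against a median of 52.7% over all windows. The box was also found in the windows of Timp1, Timp2, Timp3 and Mmp14. A match of letters is a description and not a binding site.

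Mmp12, the macrophage elastase, had the most counts of the 5 metalloproteinases. It had 51, 60, 71 and 39 counts under PBS and 60, 72, 73 and 71 counts under rFSTL1. Scaled by depth, this was 3.097, 3.321, 3.503 and 2.562 CPM under PBS and 4.009, 4.434, 3.82 and 3.644 CPM under rFSTL1. Every rFSTL1 library lay above every PBS library, although the highest PBS value and the lowest rFSTL1 value were close together. The means were 3.12 ± 0.408 CPM and 3.98 ± 0.339 CPM (SD, n = 4), which is 0.34 on the log2 scale (standard error 0.16, 95% interval -0.01 to 0.68). The adjusted p of Mmp12 was 0.324 (edgeR, Benjamini-Hochberg), and the two-sided exact permutation p was 0.0286, the smallest that 4 against 4 libraries allow. Over the 20 alternatives the log2 fold change of Mmp12 stayed positive, from 0.25 without PBS replicate 4 to 0.43 without rFSTL1 replicates 3 and 4, and the adjusted p lay between 0.254 and 0.545 in the 19 that gave one (DESeq2 gave none). Mmp12 exons overlap those of Mmp1b on the opposite strand, and Mmp1b had 0 counts in all libraries.

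Mmp19 encodes a secreted metalloproteinase that degrades basement membrane proteins. It had 39, 39, 46 and 27 counts under PBS and 25, 38, 35 and 23 counts under rFSTL1, or 2.368, 2.159, 2.27 and 1.774 CPM against 1.67, 2.34, 1.832 and 1.181 CPM. The groups overlapped, with rFSTL1 replicate 2 close to the highest PBS library and rFSTL1 replicate 4 the lowest of all. The means were 2.14 ± 0.260 CPM and 1.76 ± 0.478 CPM (SD, n = 4), and the log2 fold change was -0.30 (standard error 0.23, 95% interval -0.79 to 0.19, adjusted p 0.544 by edgeR, exact permutation p 0.257). It was -0.14 without rFSTL1 replicate 4, -0.47 without rFSTL1 replicate 2 and -0.10 without rFSTL1 replicates 3 and 4. Exons of Mmp19 overlap those of Tmem198b on the opposite strand, which had 564 counts over the 8 libraries. Whether the counting used strand is not given in the sources used here, so reads of the overlap may have been assigned to either gene.

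The remaining metalloproteinases were at the limit of what this depth can show. Mmp9, the gelatinase that neutrophils and activated macrophages secrete, had 1, 2, 7 and 1 counts under PBS and 0, 3, 2 and 0 counts under rFSTL1. Summed over a group, this was 11 counts (0.157 CPM, exact 95% Poisson interval 0.0784 to 0.281) against 5 counts (0.0717 CPM, interval 0.0233 to 0.167), and the intervals overlap. Of the 11 PBS counts, 7 came from replicate 3. Such intervals cover counting error only.

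Mmp13, the main rodent interstitial collagenase, had 2 counts in PBS replicate 3 and 0 in the other 7 libraries. Mmp14, the membrane-anchored enzyme that activates pro-Mmp2, had 0 counts in all 8 libraries. A count of 0 allows up to 3 counts over a group, or 0.0428 CPM under PBS and 0.043 CPM under rFSTL1. No difference in Mmp9, Mmp13 or Mmp14 was detectable at this depth.

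The AP-1 element, a well known control sequence of metalloproteinase promoters, was searched as TGANTCA on both strands and occurred in 7.81% of all windows. Among the 8 genes with a window, it was found in Mmp13 and in one of the 2 Mmp12 windows, and in no window of Adam8, Adam10, Mmp14, Timp1, Timp2 or Timp3. The 120 bases before those starts, both on the plus strand, are printed with the element in capitals to show the scarce and the measurable gene that carry it: Mmp13 at chr9:7272394-7272513 and Mmp12 at chr9:7347254-7347373.
Mmp13: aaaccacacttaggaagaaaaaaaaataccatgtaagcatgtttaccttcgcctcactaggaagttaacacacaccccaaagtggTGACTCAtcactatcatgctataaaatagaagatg
Mmp12: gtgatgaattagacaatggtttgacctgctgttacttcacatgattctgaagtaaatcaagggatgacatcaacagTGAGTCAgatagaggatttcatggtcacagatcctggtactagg
Counted from the start as +1, the first base of the element is at -35 in Mmp13 and at -44 in Mmp12. The other Mmp12 window lacks it and has the Ets element GAGGAAGT on its reverse strand at -88, a word found in 3.2% of all windows. Over the 8 libraries, Mmp12 had 497 counts and Mmp13 had 2. Which of the 2 Mmp12 starts these cells use was not examined, and the part of the element in these levels was not tested.

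Timp1, the inducible inhibitor of most secreted metalloproteinases, had group means that differed by less than the SD of either group. Its 33, 30, 31 and 25 counts under PBS and 26, 27, 33 and 39 counts under rFSTL1 gave 2.004, 1.661, 1.53 and 1.643 CPM against 1.737, 1.663, 1.727 and 2.002 CPM. The groups covered nearly the same range. The means were 1.71 ± 0.205 CPM and 1.78 ± 0.150 CPM (SD, n = 4), and the log2 difference was 0.07 (standard error 0.21, adjusted p 0.898 by edgeR, exact permutation p 0.486). The 95% interval of -0.37 to 0.51 covers a factor of 0.772 to 1.43, so a change within that range was not detectable. The sign of Timp1 turned negative without rFSTL1 replicates 3 and 4 (-0.0047) and with the length and GC trend removed (-0.04), and the value was 0.14 without PBS replicate 1, 0.01 without PBS replicate 3 and 0.0043 without rFSTL1 replicate 4.

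Timp2, the constitutive inhibitor that also binds Mmp14 and pro-Mmp2, was near the filter. It had 13, 16, 13 and 15 counts under PBS and 6, 7, 13 and 13 counts under rFSTL1, or 0.7894, 0.8856, 0.6415 and 0.9856 CPM against 0.4009, 0.4311, 0.6803 and 0.6672 CPM. The lower values were those of rFSTL1 replicates 1 and 2, and the other rFSTL1 libraries lay inside the PBS range. The means were 0.826 ± 0.147 CPM and 0.545 ± 0.150 CPM (SD, n = 4), and the log2 difference was -0.55 (standard error 0.33, 95% interval -1.25 to 0.15, adjusted p 0.429 by edgeR, exact permutation p 0.0857). Without rFSTL1 replicates 3 and 4 it was -0.96, farther from 0, whereas the values of Adam8 and Adam10 moved nearer to 0, and it stayed negative in all 19 alternatives that gave a value.

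Timp3, the inhibitor that binds to the matrix and also blocks ADAM proteases, had 7 counts in PBS replicate 1, 6 in PBS replicate 2 and 0 in the other 6 libraries. The 13 counts correspond to 0.186 CPM over the PBS group (exact 95% Poisson interval 0.0988 to 0.317), and the rFSTL1 group had 0 counts, for which the limit of 3 counts used for Mmp14 gives 0.043 CPM (the exact Poisson interval would reach 0.0529 CPM). As 2 of the 4 PBS libraries also had 0 counts, the pattern separates PBS replicates 1 and 2 from all other libraries, not the treatments. Timp3 exons overlap those of Syn3 on the opposite strand, which had 1 count in all. Across the whole table, 5 genes had at least 5 counts in each of these 2 libraries and 0 in the other 6: Timp3, elastin (Eln, 30 and 5 counts), biglycan (Bgn, 8 and 18), decorin (Dcn, 5 and 7) and the matricellular gene Ccn2 (5 and 5). All encode proteins of the extracellular matrix or act on it, and this search was made after the Timp3 counts had been seen. For each other pair of libraries the same search gave 0 genes or 1 gene. Of the collagen genes examined, Col1a2 had 6 and 3 counts in PBS replicates 1 and 2 and 0 in the others. Col3a1 had 7 and 4 counts there and 1 count in rFSTL1 replicate 4. Col1a1 had 3 counts and 1 count there and 1 count each in rFSTL1 replicates 1 and 4. Fibroblast markers, 0 of 7 tested, summed to 0 to 1.46 CPM in PBS libraries and to 0.0616 to 0.105 CPM in rFSTL1 libraries. The 7 include Dcn, Col1a1, Col1a2 and Col3a1, so these sums repeat counts given above. Pdgfra had 0 counts in every library, and Pdgfrb had 1, 2, 4 and 0 counts under PBS and 0, 1, 2 and 0 under rFSTL1. The part of fibroblast markers in the Timp3 counts was not tested.

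**Figure D3:**
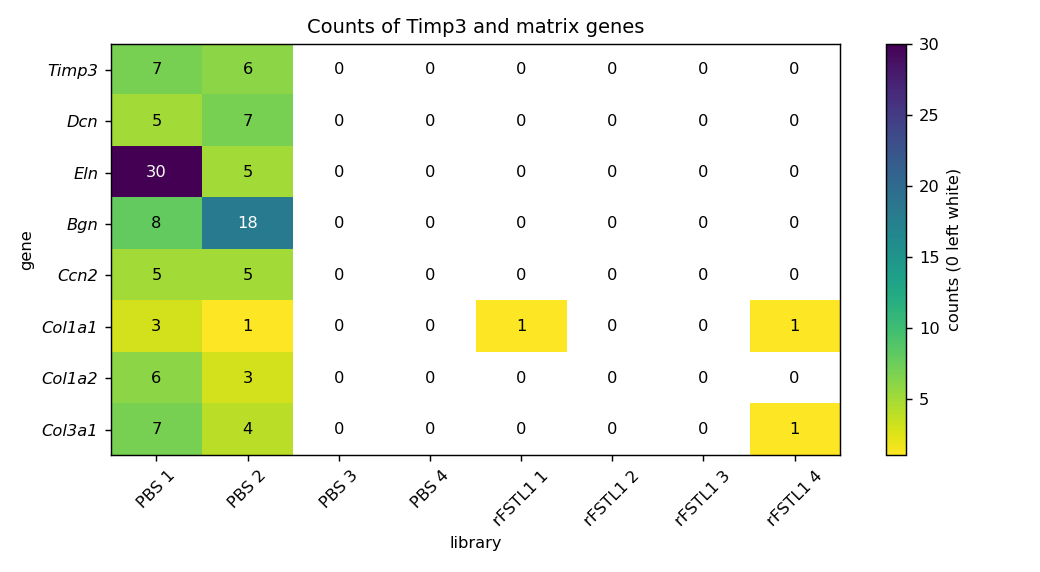
Counts of Timp3 and 7 matrix genes in each of the 8 libraries, with the count printed in each cell and 0 left white. Nonzero counts lie in PBS replicates 1 and 2, except single counts of Col1a1 in rFSTL1 replicates 1 and 4 and of Col3a1 in rFSTL1 replicate 4.

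Levels of different genes were compared per length, as CPM per kilobase of the longest GENCODE vM21 transcript. Under PBS this level was 73.25 for Adam8, 54.16 for Adam10, 1.936 for Timp1, 0.6976 for Mmp12, 0.6298 for Mmp19 and 0.2226 for Timp2. By its mean over all 8 libraries, Adam8 stood above 92.7% and Adam10 above 88.4% of the tested genes with a length, whereas Timp1 stood above 14.6%, Mmp12 above 7.6%, Mmp19 above 5.87% and Timp2 above 1.1%. Mmp12 and Mmp19 did not separate under PBS (0.5728 to 0.7831 against 0.5215 to 0.6961 CPM per kilobase) and did separate under rFSTL1 (0.8145 to 0.991 against 0.347 to 0.6879). The other neighbours in the order of the 6 genes did not overlap in either group. With the median transcript length of each gene in place of the longest, the level under PBS was 99.27 for Adam8 and 140.3 for Adam10, which reverses their order, and 2.149 for Mmp12 beside 1.992 for Timp1, which reverses theirs. Mmp19 was then at 0.9583, farther below Mmp12, so the overlap of Mmp12 and Mmp19 under PBS holds for the longest transcript and not for the median length.

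**Figure D4:**
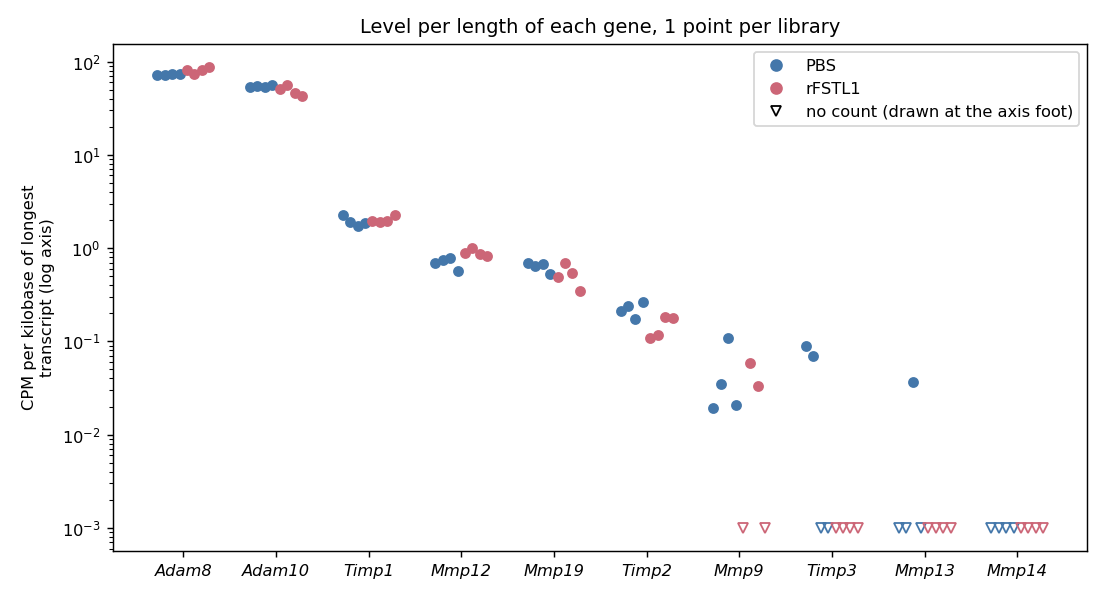
Level of each gene in CPM per kilobase of its longest transcript on a log axis, 1 point per library, with PBS in blue and rFSTL1 in red. Open triangles at the foot of the axis mark libraries without a count, and the genes fall from Adam8 with 73.25 under PBS to Mmp14, which had no count.

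The genes around these proteases were examined through lists of related genes that exclude the 10 members. Of 89 such genes, 47 were tested, 2 were called higher under rFSTL1 and 0 lower at an adjusted p of 0.05 by edgeR. At an unadjusted p under 0.05 there were 15 genes, or 31.9%, all with a higher level under rFSTL1, against 15.9% of all tested genes in either direction. The lists were chosen with earlier results of these data known, so the difference between these shares cannot be read as a result about the lists. The share of all tested genes with a higher level alone was not computed. The median log2 fold change was 0.08, beside 0.01 over all tested genes.

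Few other metalloproteinases were detected. Of 13 further secreted enzymes 7 had 0 counts in all libraries and 1, the gelatinase Mmp2, was tested, and none of 5 membrane-bound enzymes or 3 further inhibitors was tested. Mmp2 had 0.654 ± 0.131 CPM under PBS and 0.583 ± 0.308 CPM under rFSTL1 (SD, n = 4), and the log2 difference was -0.22 (standard error 0.40, adjusted p 0.819, edgeR, Benjamini-Hochberg). Leaving out rFSTL1 replicate 1 gave -0.58 and leaving out rFSTL1 replicate 3 gave 0.04, and without rFSTL1 replicates 3 and 4 the value was 0.23, so the sign of Mmp2 rests on single libraries. Among 12 other ADAM and ADAMTS proteases 4 were tested and 0 passed the threshold. The lowest p was that of Adam15, an adhesion-related ADAM, at 215.8 ± 4.08 CPM under PBS and 233.5 ± 22.5 CPM under rFSTL1. Its log2 difference of 0.12 (standard error 0.06, adjusted p 0.334 by edgeR) was 0.05 without rFSTL1 replicate 4 and 0.00029 without rFSTL1 replicates 3 and 4, and it was 0.04 with the length and GC trend removed.

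Genes that bring ADAM10 and ADAM17 to the surface or control them include tetraspanins and the iRhom proteins. Of the 6 tested, 0 passed the threshold and 3 had an unadjusted p under 0.05 in edgeR, beside 15.9% of all tested genes. The lowest was Frmd8, which stabilises the iRhom and ADAM17 complex, at 47.0 ± 1.27 CPM under PBS and 53.7 ± 4.6 CPM under rFSTL1 (log2 fold change 0.20, standard error 0.06, adjusted p 0.173 by edgeR). Without rFSTL1 replicates 3 and 4 its value was 0.08, and limma voom, 1 of 20 alternatives, called it (adjusted p 0.0332). Among genes for activation, docking and clearance, 8 of 10 were tested and 0 passed. All 8 had a positive log2 fold change (median 0.05, beside 0.01 over all tested genes), although that of Furin turned to -0.055 without rFSTL1 replicates 3 and 4. Bsg, the metalloproteinase inducer basigin, had the lowest p, at 317.7 ± 12.1 CPM and 363.7 ± 9.88 CPM (SD, n = 4) with no overlap between the groups (log2 fold change 0.19, standard error 0.04, adjusted p 0.0585). With the length and GC trend removed, Bsg had a log2 fold change of 0.10. It passed 0.05 in 5 of 20 alternatives, which were DESeq2 (adjusted p 0.000753), limma voom (0.0125), upper-quartile factors (0.0446), all genes with at least 1 count (0.0313) and the fit without rFSTL1 replicate 2 (0.0375). Of 16 shed or cleaved substrates 11 were tested, 0 passed and the lowest p was that of Tnf, the ADAM17 substrate, at 80.3 ± 2.64 CPM and 87.5 ± 4.67 CPM (log2 fold change 0.12, standard error 0.05, adjusted p 0.247 by edgeR). For Tnf the value was 0.07 without rFSTL1 replicates 3 and 4 and 0.07 with the length and GC trend removed.

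The urokinase pathway, whose product plasmin can activate secreted metalloproteinases, was described by 3 genes chosen after their values were seen. These were the urokinase gene Plau (593.5 ± 25.7 against 667.6 ± 22.0 CPM, log2 fold change 0.17, adjusted p 0.0979), its receptor Plaur (14.95 ± 1.52 against 19.8 ± 2.88 CPM, 0.40, adjusted p 0.110) and Anxa2, which binds plasmin's precursor at the cell surface (0.16, adjusted p 0.110). All 3 had a higher mean under rFSTL1, and the call depended on the tool, since none passed in edgeR with all libraries and all 3 passed in DESeq2 (adjusted p 0.00845, 0.0472 and 0.0192) and in limma voom (0.0181, 0.0428 and 0.0315). Over 20 alternatives, Plau passed in 3, Plaur in 3 and Anxa2 in 2. Of the 6 tested genes listed for the plasminogen system, 4 had a positive log2 fold change and 2 a negative one. The negative ones were S100a10 and Plgrkt. S100a10 was lower in every rFSTL1 library than in any PBS library (96.7 ± 0.159 against 94.4 ± 0.568 CPM, -0.04, adjusted p 0.689 by edgeR). Plgrkt was at -0.02 (adjusted p 0.915 by edgeR).

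Of 12 AP-1 and Ets factors, which act on many metalloproteinase promoters, 11 were tested. Of these, 9 had a positive log2 fold change (median 0.13, beside 0.01 over all tested genes). An unadjusted p under 0.05 in edgeR was found for 5, a level that 15.9% of all tested genes reached. Junb, an AP-1 subunit, rose from 74.33, 76.33, 81.52 and 74.44 CPM under PBS to 95.94, 92.06, 95.77 and 107.4 CPM under rFSTL1. The groups did not overlap, and the means were 76.7 ± 3.37 CPM and 97.8 ± 6.64 CPM (SD, n = 4). Its log2 difference was 0.35 (standard error 0.05, adjusted p 0.00895 by edgeR), and the adjusted p was 0.0537 without PBS replicate 2 and 0.0748 without PBS replicate 4. Fosl2, another AP-1 subunit, named after its values were seen, had 38.1 ± 3.67 CPM and 47.9 ± 3.03 CPM (log2 fold change 0.32, adjusted p 0.0626 by edgeR). Fosl2 passed in 6 of 20 alternatives, among them DESeq2 (adjusted p 0.00868), limma voom (0.0351) and the edgeR fit without rFSTL1 replicates 3 and 4 (0.0406).

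**Figure D5:**
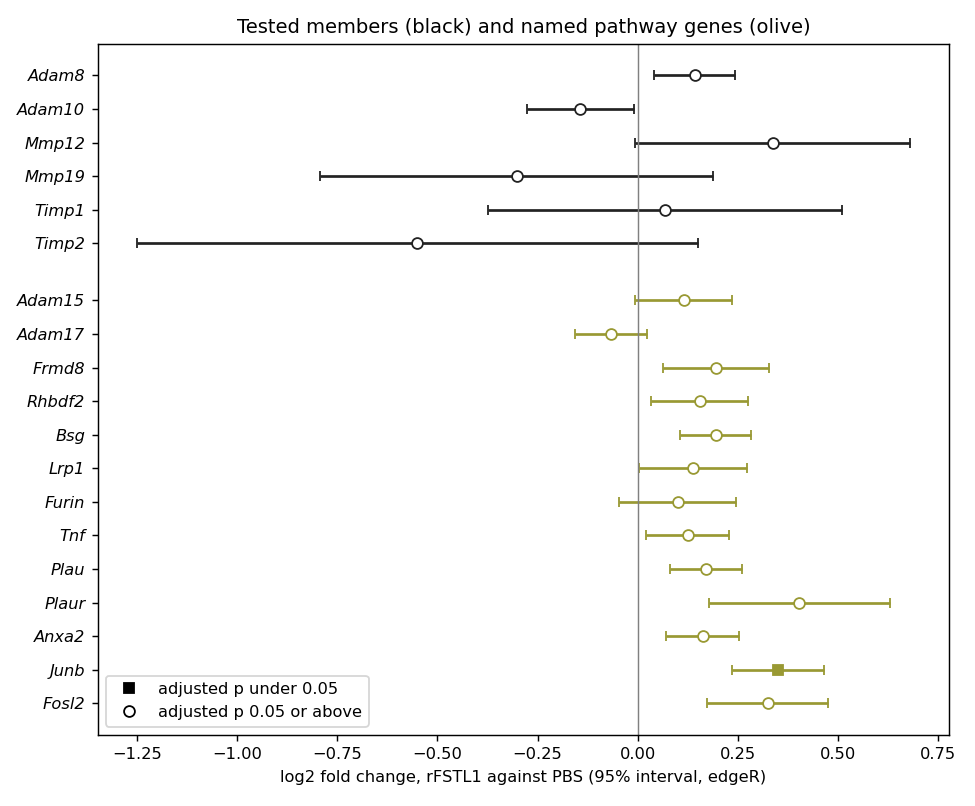
Log2 fold change of rFSTL1 against PBS with its 95% interval from edgeR for the 6 tested members (black) and 13 related genes (olive), with a filled square for an adjusted p under 0.05 and open circles otherwise. Junb at 0.35 is the filled point, and the 6 members lie between -0.55 and 0.34 with open circles.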

How the data were processed

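The deposited table holds expected counts (estimated read counts) of 22013 genes made by the authors from poly(A) RNA libraries and not normalized. Submitters' notes name HISAT2, Bowtie2 2.2.8, StringTie 1.3.1 and DESeq2 without their roles, and the genome build is not given in the sources used here. Of the nonzero values 13% were not whole, and all were rounded to counts. Genes were filtered with filterByExpr (minimum count 10), scaled by TMM and tested with edgeR 4.0.16 in R 4.3.3 (quasi-likelihood, Benjamini-Hochberg, threshold 0.05), with checks on simulated data. Standard errors came from the fold change and F statistic. Exact permutation tests used log2(CPM + 1). Replicate pairs differed beyond sampling noise (chi-square per degree of freedom at least 3.05). Alternatives used DESeq2 1.42.0, limma 3.58.1, other scalings and filters, a threshold of 0.1 on the main fit, and left-out libraries. The members and lists were chosen with earlier results of these data known. Named were all members, each list's called genes and its lowest p (1 called gene is not reported here), and the 3 genes most correlated with Adam8 and with Adam10. Other related genes in the text and the fold change plot (Plau, Plaur, Anxa2, S100a10, Plgrkt, Fosl2, Rhbdf2, Lrp1, Adam17, Furin) were chosen after their values were seen.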

Additional observations from a re-analysis of the deposited data

Results flagged for a closer look

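Over 48 groups of 4 libraries, 2 held a library far from the others by Dixon's test, where chance gives about 2.4. Mmp13 was at 0.0987 CPM in PBS replicate 3, which is 2 counts, and at 0 in the other PBS libraries. Plau was at 555.4 CPM in PBS replicate 4, against 601.4 to 610.4 CPM in the other PBS libraries.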

How the results depend on the processing

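The number of genes past the threshold, 37 with edgeR (35 higher, 2 lower), was 192 with DESeq2 (131 higher, 61 lower), 454 with limma voom (244 and 210), 56 with upper-quartile factors (54 and 2), 127 with all genes of at least 1 count (101 and 26), 133 at a threshold of 0.1 (111 and 22), and 76 with the length and GC trend removed (67 and 9). It was 11 to 99 when 1 library was left out, lowest without PBS replicate 2. The number of the 10 genes called was 0, except 1 (Adam8, adjusted p 0.0464) with limma voom, and it was 0 in each fit without 1 library. The number of related genes called, 2, was 7 with DESeq2, 8 with limma voom, 4 with upper-quartile factors, 4 with all genes of at least 1 count, 5 at a threshold of 0.1, and 1 to 3 when 1 library was left out. Timp1 reversed to -0.0047 without rFSTL1 replicates 3 and 4 and to -0.037 with the trend removed. Without the same pair Mmp2 reversed to 0.23 and Furin to -0.055, and Mmp2 ran from -0.58 (without rFSTL1 replicate 1) to 0.042 (without rFSTL1 replicate 3) when 1 library was left out. The cause was not tested. Of the fold changes under alternatives, 115 of 117 for the members and 314 of 317 for the related genes kept their direction. These include the alternative threshold of 0.1, which uses the main fit, so its fold changes could not differ. The removal of the trend and of the pair of libraries was chosen after seeing the data. Same-numbered libraries did not deviate together (correlations -0.09, 0.08, -0.01 and 0.00098), and a fit with the replicate number as a block called 41 genes, 0 members and 2 related genes, with Adam8 at 0.14, Adam10 at -0.15 and Mmp12 at 0.35. A minimum count of 50 left no value for Mmp19, Timp1 and Timp2, and counts of this size limit what can be detected.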
